A study of Homo sapiens with 2 samples.

Results

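The core circadian clock genes were examined in PLC/PRF/5 cells with and without M2BPGi. They were 10 genes chosen by their symbols. ARNTL and CLOCK encode the activators, PER1, PER2, PER3, CRY1 and CRY2 the repressors, NR1D1 and NR1D2 the nuclear receptors of the second loop, and DBP an output factor. All 10 were found among the 16424 listed genes, and all 10 were among the 13724 genes whose mean over both libraries was 1 CPM or more. CPM is the number of tags of a gene scaled to a common library size. PLC/PRF/5 cells are a human line derived from hepatoma, and M2BPGi is a glycosylated form of Mac-2-binding protein that the study examined as a promoter of hepatocellular carcinoma. The libraries were made by CAGE (cap analysis of gene expression), in which a short tag is read from the capped end of an RNA and so locates where transcription began. Non-treated cells (0 µg/ml) received fresh medium alone, and M2BPGi-treated cells received medium with 3 µg/ml M2BPGi. Cells of both conditions were collected 6 h later, from cultures that were not yet confluent, and gave 1 library each. No genetic change is described for either condition.

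These libraries limit what can be read from clock genes. They came from 1 cell line at 1 time after the medium change, with 1 library per condition, so no difference has a replicate check and no p-value was computed. A shift of the rhythm, a change of its strength and a different mixture of cells in different phases cannot be told apart in such libraries, nor can fewer cells of a kind and less RNA per cell. The non-treated library held 24040209 tags and the M2BPGi-treated library 24862941, of which 22630317 and 23471991 were on the listed genes. One tag was worth 0.0416 CPM in the former and 0.0402 CPM in the latter. The 95% intervals given with each value cover counting error only.

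In the mammalian clock, CLOCK and ARNTL (also called BMAL1) bind as a pair to E-box sequences and activate the PER, CRY and NR1D genes, and the PER and CRY proteins return to repress that pair. In a second loop, the NR1D proteins (REV-ERBs) repress ARNTL through response elements (RREs) that they share with the activating ROR receptors. DBP, with its relatives TEF and HLF, activates genes through D-boxes, at which NFIL3 represses, and in the liver these loops drive daily rhythms of glucose, lipid and bile acid metabolism.

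The cell type was checked against its markers. All 11 of 11 hepatocyte or hepatoma markers were listed, with a sum of 3593.06 CPM without and 3554.5 CPM with M2BPGi. In the same order, KRT18 was the most abundant at 1249.78 and 1592.01 CPM, and it has 17 near-identical or overlapping gene models. AFP stood at 695.38 and 565.62 CPM and SERPINA1 at 670.75 and 455.18 CPM, whereas ALB was at 8.82 and 7.04 CPM and TTR at 3.62 and 2.49 CPM. The cells therefore carried hepatoma markers with low albumin. Of 6 stromal markers, only COL1A1 was listed, at 0.67 and 0.76 CPM. Of 5 immune markers, CD68 was at 21.17 and 20.47 CPM, PTPRC and CSF1R were at 0 in both libraries, and the others were not listed. The value of CD68 is uncertain, since it has 1 near-identical or overlapping gene model. None of the 4 endothelial markers was listed.

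The loops are known to act through short promoter elements, so matches to these elements in the promoters of the 10 genes were searched and some are shown here. RefSeq promoter windows on GRCh38.p14 were found for 10 of 10 genes, with ARNTL under the symbol BMAL1. There were 15 windows, since 5 genes had 2 windows, and each window spanned 250 bases before an annotated start and 50 bases from it on. The submitters' processing notes name hg19, so these coordinates come from the annotation alone and were not joined to tag positions. The motifs were searched on both strands, and N stands for any base. The sequences are written in the direction of the gene, with the matched motif in capitals. Distances are counted from the annotated start of the window that holds the match, which need not be the outermost start of the gene. The matches shown for PER1, PER2, CRY1, NR1D2, ARNTL and CRY2 lie inside the gene positions given below.

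The canonical E-box CACGTG was found in PER1 and NR1D2. The PER1 match is at chr17:8152561-8152588 on the minus strand, with the first base of the motif 173 bases before the start. The NR1D2 matches are at chr3:23945955-23945982 and chr3:23946005-23946032 on the plus strand, 155 and 105 bases before the more downstream of its annotated starts.
PER1 E-box: gcacccaggtcCACGTGcgcccgtgtgt
NR1D2 E-box, distal: gcgggcggggaCACGTGaggccgctcgg
NR1D2 E-box, proximal: ggccgcagggaCACGTGggggcgggggc

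The related form CACGTT, which differs in its last letter so that no stretch matches both forms, was found in CLOCK, PER2, CRY1, CRY2 and NR1D1. The PER2 match is at chr2:238288791-238288818 on the minus strand, 197 bases before the start. The matches of CRY1 at chr12:107093622-107093649 and of NR1D1 at chr17:40100741-40100768, both genes of the minus strand, read in the opposite direction and so appear as AACGTG, 89 and 168 bases before the start.
PER2 CACGTT: gcgcgcgcggtCACGTTttccactatgt
CRY1 CACGTT: cacacttcagaAACGTGaggtgccggtg
NR1D1 CACGTT: cgcaagagctcAACGTGccggctgttgg

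The D-box TTANGTAA was found in PER2, PER3 and NR1D2. In PER2 it is at chr2:238288595-238288624 on the minus strand, 3 bases before the start, and in PER3 at chr1:7784103-7784132 on the plus strand, 177 bases before it. The core of the RRE, TNGGTCA, was found in ARNTL, CLOCK, CRY2 and NR1D2. In ARNTL, the gene on which the second loop acts, a match is at chr11:13277809-13277837 on the plus strand. It is 30 bases after the more downstream of the annotated starts of ARNTL. In CRY2 the match is at chr11:45847399-45847427 on the plus strand, 65 bases before the more downstream of its annotated starts.
PER2 D-box: cccgctgcggcTTACGTAAccgccgccggc
PER3 D-box: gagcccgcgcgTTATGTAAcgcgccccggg
ARNTL RRE core: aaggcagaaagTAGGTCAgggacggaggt
CRY2 RRE core: ttgcggcgtcaTAGGTCActgggcgggct

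Over the 27305 genes with such windows, the E-box was present in 8.77%, CACGTT in 6.44%, the D-box in 2.71% and the RRE core in 11.44%. Of the 10 clock genes, 2, 5, 3 and 4 had a match. A gene counted if any of its windows matched. The 10 clock genes had 15 windows and the 27305 genes had 35116, so the lengths searched per gene were not equal. The CREB element TGACGTCA was present in 2.25% of all genes and in 0 of the 10. DBP had no match to any of these motifs in its window. A match is a description of the sequence, and binding to it was not measured.

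All 10 clock genes had tags in both libraries, at low to moderate levels. Levels are given in CPM without division by length, since a CAGE tag counts the start of a transcript. CRY1 was the highest at 25.25 CPM without and 25.54 CPM with M2BPGi, and NR1D1 the lowest at 2.83 and 3.3 CPM. The order was the same in both libraries, from CRY1 through PER3, CLOCK, PER1, CRY2, DBP, ARNTL, PER2 and NR1D2 to NR1D1. Neighbours in this order were compared by the counting interval of their ratio. In non-treated cells it included 1 for CRY2 over DBP, DBP over ARNTL and ARNTL over PER2, and excluded 1 for the other neighbours. In M2BPGi-treated cells it included 1 for CLOCK over PER1, CRY2 over DBP, DBP over ARNTL and PER2 over NR1D2, and excluded 1 for the others. CRY2, DBP and ARNTL thus did not differ from their neighbours among these 3 beyond counting error in either library.

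**Figure D1:**
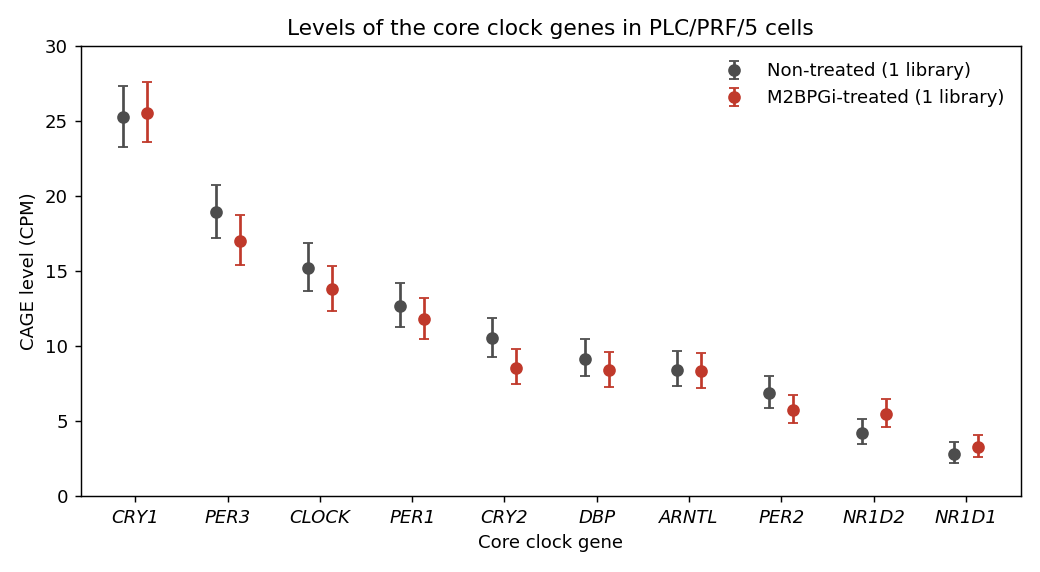
CAGE level of each core clock gene in CPM, in order of level, for the non-treated library (grey) and the M2BPGi-treated library (red), 1 library each. Points are the levels and bars are 95% Poisson intervals for counting error. CRY1 stands above 25 CPM and NR1D1 near 3 CPM in both libraries.

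None of the 10 genes differed by 1.5-fold or more between the libraries. On the log2 scale after adding 1 CPM to each value, 0 clock genes passed 1.5-fold upwards and 0 passed it downwards in the M2BPGi-treated library. Over all 13724 genes, 219 (1.60%) passed it upwards and 555 (4.04%) downwards. With the libraries rescaled to a median log2 ratio of 0, these numbers were 292 and 441. The median log2 ratio of the clock genes was -0.10, with 3 genes higher and 7 lower, beside a median of -0.05 over all genes, of which 57.02% were lower. Among the 6079 genes with a mean CPM between those of NR1D1 and CRY1, the median was -0.09. The median of the clock genes was thus close to that of genes of their level. The median size of the log2 ratio without its sign was 0.14 for the clock genes and 0.20 for all genes.

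The counting interval of the tag ratio lay below 1 for CRY2 and above 1 for none of the 10. Such intervals were common, as 31.5% of all genes had an interval below 1 and 22.8% above 1. Rescaling removed the median of -0.05 of all genes from each ratio. The interval of CRY2 then included 1 and that of NR1D2 lay above 1, so these calls depended on the scaling of the libraries. Of all 13724 genes, 3807 had an interval above and 3574 below 1 after rescaling. The intervals of 7 genes excluded a 1.5-fold difference in either direction. Those of PER2, NR1D1 and NR1D2 reached past 1.5-fold in the direction of their ratio.

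**Figure D2:**
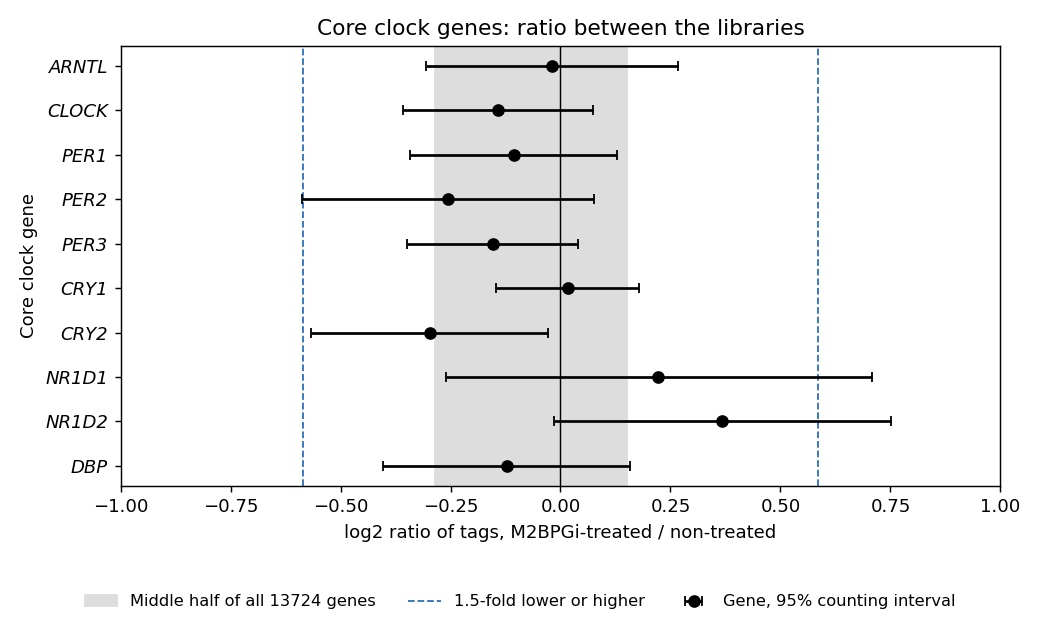
Log2 ratio of tags, M2BPGi-treated over non-treated cells, for each core clock gene, without a pseudocount. Bars are 95% Clopper-Pearson intervals for counting error, the grey band spans the quartiles of all 13724 genes (-0.28 to 0.15) and dashed lines mark a 1.5-fold difference. Every point lies between the dashed lines, NR1D1 and NR1D2 lie to the right of the band, and CRY2 lies at its left edge.

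The activators stood at nearly the same level in both libraries. ARNTL (ENSG00000133794, chr11:13276652-13387266, plus strand) encodes the partner that CLOCK needs to bind DNA. It had 8.44 CPM in non-treated cells (203 tags) and 8.33 CPM in M2BPGi-treated cells (207 tags). The log2 ratio of its tags was -0.02 (interval -0.31 to 0.27), and its log2 ratio was 0.03 after rescaling, so ARNTL had no direction. CLOCK (ENSG00000134852, chr4:55427903-55547138, minus strand), a transcription factor with acetyltransferase activity, had 15.22 CPM (366 tags) and 13.8 CPM (343 tags). Its log2 tag ratio was -0.14 (-0.36 to 0.07), which includes no difference. Together the activators had 23.66 and 22.13 CPM, with a log2 ratio of -0.10 (-0.27 to 0.07).

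Each of these factors has a paralogue that was more abundant in these cells. NPAS2, which can replace CLOCK, was at 86.02 and 87.84 CPM, 5.65 times the level of CLOCK in non-treated and 6.37 times in M2BPGi-treated cells. ARNTL2, which can replace ARNTL, was at 32.45 and 38.89 CPM, 3.84 and 4.67 times the level of ARNTL. Its own log2 tag ratio was 0.26 (0.12 to 0.40), an interval above 1, and that of NPAS2 was 0.03 (-0.06 to 0.12). The paralogues therefore supplied most transcript starts of either kind in both libraries. The change of the NPAS2 to CLOCK ratio was 0.17 on the log2 scale (-0.06 to 0.41) and that of ARNTL2 to ARNTL 0.28 (-0.04 to 0.60), and neither interval excluded 0. The sequence of NPAS2 overlaps 1 antisense gene model, and the counting of strands is not stated in the sources used here.

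The PER genes, which encode the repressors that are phosphorylated and degraded in each cycle, were all lower in the M2BPGi-treated library by less than 1.5-fold. PER1 (ENSG00000179094, chr17:8140472-8156506, minus strand), which responds quickly to serum, glucocorticoids and cyclic AMP, had 12.69 CPM (305 tags) and 11.78 CPM (293 tags). Its log2 tag ratio was -0.11 (-0.34 to 0.13). PER2 (ENSG00000132326, chr2:238244038-238290102, minus strand), the scaffold of the repressor complex, had 6.86 CPM (165 tags) and 5.75 CPM (143 tags). Its log2 tag ratio was -0.26 (-0.59 to 0.08), the lowest of the 3 genes and the least precise. PER3 (ENSG00000049246, chr1:7784320-7845177, plus strand) was the most abundant of them, with 18.93 CPM (455 tags) and 17.01 CPM (423 tags). Its log2 tag ratio was -0.15 (-0.35 to 0.04), so each interval included no difference. In sum the PER genes had 38.48 and 34.54 CPM, a log2 ratio of -0.16 (-0.29 to -0.02). After rescaling it was -0.10 (-0.24 to 0.03). PER3 stood at 2.76 and 2.96 times the level of PER2, and PER1 at 1.85 and 2.05 times, so the proportions among the PER genes were alike in both libraries.

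The CRY genes encode the cryptochromes, which block the activator pair directly. CRY1 (ENSG00000008405, chr12:106991364-107093829, minus strand) had 607 tags in non-treated and 635 tags in M2BPGi-treated cells, with a log2 ratio of 0.02 (-0.15 to 0.18). This was the most precise value among the 10, and CRY1 did not differ beyond counting error. CRY2 (ENSG00000121671, chr11:45847118-45883248, plus strand) had 10.52 CPM (253 tags) and 8.57 CPM (213 tags). Its log2 tag ratio was -0.30 (-0.57 to -0.03), which is 0.814 times the non-treated level (0.675 to 0.981). After rescaling the interval was -0.51 to 0.02. On the log2(CPM + 1) scale its value of -0.27 was at percentile 23.7 of all genes. CRY1 was 2.40 times as abundant as CRY2 in non-treated and 2.98 times in M2BPGi-treated cells, a change of 0.31 on the log2 scale (-0.003 to 0.63). Together the CRY genes had 35.77 and 34.11 CPM, a log2 ratio of -0.07 (-0.21 to 0.07).

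The NR1D genes were the least abundant, and both were higher in the M2BPGi-treated library by less than 1.5-fold. NR1D1 (ENSG00000126368, chr17:40092787-40100725, minus strand) encodes REV-ERB alpha, the haem-binding repressor of ARNTL. It had 2.83 CPM (68 tags) and 3.3 CPM (82 tags), with a log2 tag ratio of 0.22 (-0.26 to 0.71). NR1D2 (ENSG00000174738, chr3:23945260-23980618, plus strand) encodes REV-ERB beta, which shares this role. It had 4.24 CPM (102 tags) and 5.47 CPM (136 tags), with a log2 tag ratio of 0.37 (-0.01 to 0.75). This was the highest value of the 10, and its interval was 0.04 to 0.80 after rescaling. On the log2(CPM + 1) scale the value of NR1D2 was 0.30, at percentile 89.7 of all genes. The sum of both genes was 7.07 and 8.77 CPM, a log2 ratio of 0.31 (0.01 to 0.61). After rescaling it was 0.36 (0.07 to 0.66). NR1D2 was 1.5 times as abundant as NR1D1 in non-treated cells and 1.66 times in M2BPGi-treated cells.

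DBP (ENSG00000105516, chr19:48630030-48637438, minus strand) encodes an activator of liver genes whose own transcription follows the activator pair closely. It had 9.15 CPM (220 tags) and 8.41 CPM (209 tags), with a log2 tag ratio of -0.12 (-0.40 to 0.16), and so did not differ beyond counting error. Its relatives at the D-box were higher in the M2BPGi-treated library. HLF, an activator, had 18.43 and 22.32 CPM, a log2 tag ratio of 0.28 (0.09 to 0.46). TEF, another activator, had 4.16 and 5.19 CPM, at 0.32 (-0.07 to 0.71). NFIL3, the repressor at the same sites, had 19.92 and 26.02 CPM, at 0.39 (0.21 to 0.56). Counting error alone thus spanned the difference of TEF but not those of HLF and NFIL3. Relative to DBP, HLF stood at 2.01 times in non-treated and 2.65 times in M2BPGi-treated cells, a change of 0.40 (0.06 to 0.74). NFIL3 stood at 2.18 and 3.09 times the level of DBP, a change of 0.51 (0.18 to 0.84). These changes do not depend on how the libraries were scaled, and both intervals excluded 0. The other pairs of related genes compared here had intervals that included 0. For single genes, 22.8% of all intervals lay above and 31.5% below 1 before rescaling. The matching share for ratios of 2 genes was not computed, so how common such exclusions were among pairs is not known. DBP itself was 2.20 and 1.62 times as abundant as TEF, a change of -0.44 (-0.93 to 0.04). This interval included 0.

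**Figure D3:**
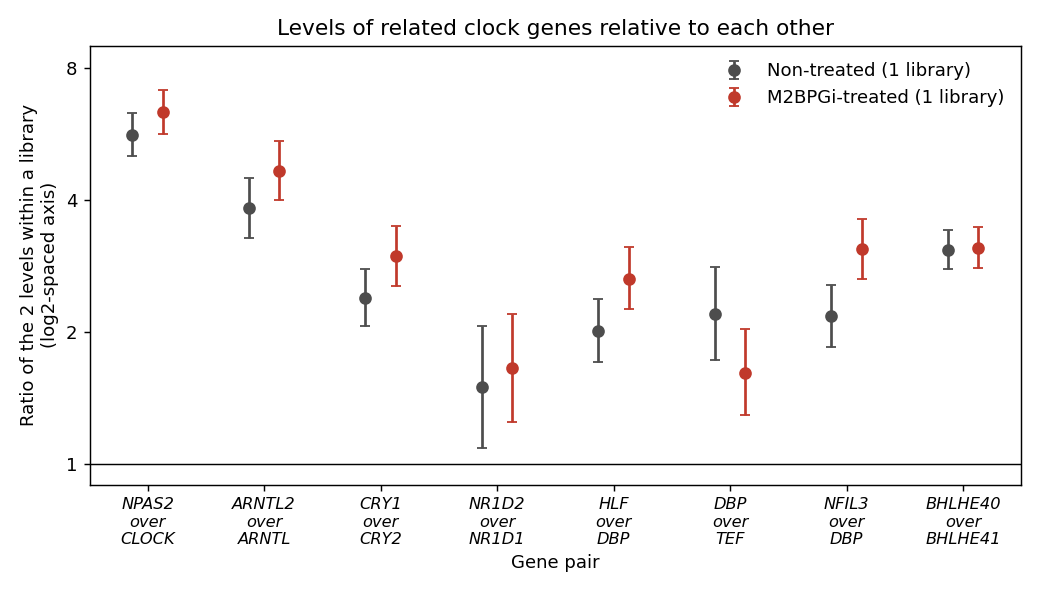
Ratio of the levels of related clock genes within each library, on a log2-spaced axis, for the non-treated (grey) and the M2BPGi-treated (red) library. Bars are 95% counting intervals. NPAS2 exceeds CLOCK more than 5-fold in both libraries, and NFIL3 over DBP is 2.18 in non-treated and 3.09 in M2BPGi-treated cells.

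The ratio of clock genes within a library, which no scaling of the libraries can move, was also taken against ARNTL. In non-treated cells CRY1 was 2.99 times, PER3 2.24 times, CLOCK 1.80 times and PER1 1.5 times the level of ARNTL. In M2BPGi-treated cells these ratios were 3.07, 2.04, 1.66 and 1.41. NR1D2 was 0.502 times ARNTL in non-treated and 0.657 times in M2BPGi-treated cells, a change of 0.39 (-0.10 to 0.87). Of the 9 ratios to ARNTL, 0 had a change whose interval excluded 0. With CLOCK as the reference, NR1D2 was 0.279 and 0.396 times CLOCK, a change of 0.51 (0.07 to 0.95). This was the only such ratio to CLOCK whose interval excluded 0. The share of all genes whose ratio to ARNTL or CLOCK had such an interval was not computed. The sum of all 10 genes was 114.13 CPM without and 107.96 CPM with M2BPGi, a log2 ratio of -0.08 (-0.16 to -0.003), and -0.03 (-0.11 to 0.05) after rescaling.

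The level and the length of a gene moved with the ratios over all genes, and their part in the values of the clock genes was not tested. By mean CPM, the genes between 3 and 10 CPM had a median log2 ratio of -0.11 and held 6 clock genes, and those between 10 and 30 CPM had a median of -0.08 and held the other 4. When 13271 genes were split by their longest transcript into 4 groups of about equal size, the medians from short to long were 0.03, -0.03, -0.07 and -0.12. The group of the longest transcripts held CLOCK, PER2, PER3, NR1D2 and DBP, the group before it held ARNTL, PER1, CRY1 and CRY2, and NR1D1 lay in the next shorter one. None of the 10 genes had a near-identical copy in the annotation. On the other strand, 4 gene models started within 1000 bases of the starts of CLOCK, PER2, CRY1 and DBP, and none of these was listed.

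Among the other genes of the loops, 0 were past 1.5-fold in either direction, beside 1.60% higher and 4.04% lower over all genes. Of 13 loop partners, 11 were listed and 9 had a mean of 1 CPM or more. Their median log2 ratio was 0.08, with 6 higher and 3 lower, and 3 intervals lay above and 2 below 1. Over all genes 22.8% of intervals lay above and 31.5% below 1. NFIL3 was the highest at 0.37, followed by HLF and TEF at 0.26 each. TIMELESS, a replication fork protein related to a clock protein of flies, was the lowest at -0.14, with 46.01 and 41.63 CPM. BHLHE41 (20.42 and 18.54 CPM) and BHLHE40 (63.06 and 57.84 CPM), repressors that compete for E-boxes, were at -0.13 and -0.12. RORA, a receptor that opposes NR1D1 and NR1D2, was at 0.67 and 0.64 CPM. The NR1D genes were thus more abundant than RORA in both libraries.

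Enzymes that modify clock proteins were all present. All 19 had a mean of 1 CPM or more, and their median was 0.07, with 12 higher and 7 lower and 0 past 1.5-fold. Intervals lay above 1 for 8 and below 1 for 3, beside 22.8% and 31.5% of all genes. GSK3A, a glycogen synthase kinase, was the highest with 50.71 and 75.49 CPM, a log2 ratio of 0.56. PPP1CC, a catalytic subunit of protein phosphatase 1, was at 0.32 and FBXW11, a ubiquitin ligase subunit for PER proteins, at 0.30. CSNK1E, the casein kinase that marks PER proteins for degradation, was the lowest with 39.27 and 34.23 CPM, a log2 ratio of -0.19. PRKAA1, a kinase of CRY1, was at -0.14 and CSNK2A2, a subunit of casein kinase 2, at -0.12.

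Cofactors of the loops, 11 of 11 at 1 CPM or more, had a median of -0.10, with 3 higher and 8 lower and 0 past 1.5-fold. HDAC3, the deacetylase that works with NR1D1, had 21.96 and 27.43 CPM, a log2 ratio of 0.31. NCOR1, a corepressor that works with it, was at -0.18. WDR5, a subunit of histone methyltransferases, was at 0.15. CREBBP, a coactivator of the activator pair, was the lowest at -0.29, and NONO, a partner of PER proteins, was at -0.19. In this list 3 intervals lay above and 3 below 1, against the same 22.8% and 31.5% of all genes.

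Liver genes with known clock control had the lowest median of the clock-related lists. Of 16, 14 were listed and 12 had a mean of 1 CPM or more. Their median was -0.25, with 2 higher and 10 lower, and 1 interval lay above and 7 below 1. None passed 1.5-fold upwards and 3 passed it downwards, beside 1.60% and 4.04% of all genes, and the shares of intervals over all genes were 22.8% above and 31.5% below 1. Among these, INSIG2, which retains the sterol sensor in the endoplasmic reticulum, had 50.62 and 32.38 CPM, a log2 ratio of -0.63, and PCK1, an enzyme of gluconeogenesis, had 8.82 and 5.43 CPM, at -0.61. Genes of this list have many other regulators, and hepatocyte markers such as SERPINA1 were lower as well, with a median of -0.26 over the 11 markers. The part of either in these values was not tested. NAMPT, the enzyme of NAD salvage, was the highest at 0.20, followed by PPARA at 0.16 and ALAS1 at -0.04.

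Fresh medium, serum and hormones can reset the clock of cultured cells through PER1, so genes of these responses were set beside it. Of 16 immediate-early genes, 15 were listed and 13 had a mean of 1 CPM or more, with a median of -0.11, 5 higher, 8 lower and 0 past 1.5-fold. The NR4A receptors were the lowest, with NR4A3 at -0.50 (4.41 and 2.82 CPM), NR4A2 at -0.47 and NR4A1 at -0.41 (96.21 and 72.24 CPM). Without the pseudocount the log2 tag ratio of NR4A3 was -0.65 (-1.10 to -0.20), past 1.5-fold downwards. The 0 of the immediate-early list therefore depended on the pseudocount. FOSL1 was at 0.23, ATF3 at 0.21 and SIK1 at 0.07, the highest 3, and PER1 at -0.10 lay close to the median of this list. In this list 1 interval lay above and 4 below 1 (22.8% and 31.5% of all genes). Of 11 glucocorticoid response genes, 9 were listed and had a mean of 1 CPM or more, with a median of 0.01, 5 higher, 4 lower and 0 past 1.5-fold. MT2A, a metallothionein with 2 near-identical copies, was the highest at 0.56, with 8.03 and 12.31 CPM, followed by CEBPD at 0.13 and TSC22D3 at 0.10. Without the pseudocount the log2 tag ratio of MT2A was 0.62 (0.35 to 0.88), past 1.5-fold. The 0 of this list therefore depended on the pseudocount. KLF9 was the lowest at -0.29, then DUSP1 at -0.15 and SGK1 at -0.12. Intervals in this list lay above 1 for 2 genes and below 1 for 1 (22.8% and 31.5% of all genes).

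The values of NPAS2, RORA, PPP1CC, CSNK1E, PRKAA1, HDAC3, WDR5, NCOR1, NONO, NAMPT, FOSL1, SIK1 and MT2A, named from these lists, are uncertain. These genes share sequence near their starts with a copy or an overlapping gene model. The core clock genes do not.

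**Figure D4:**
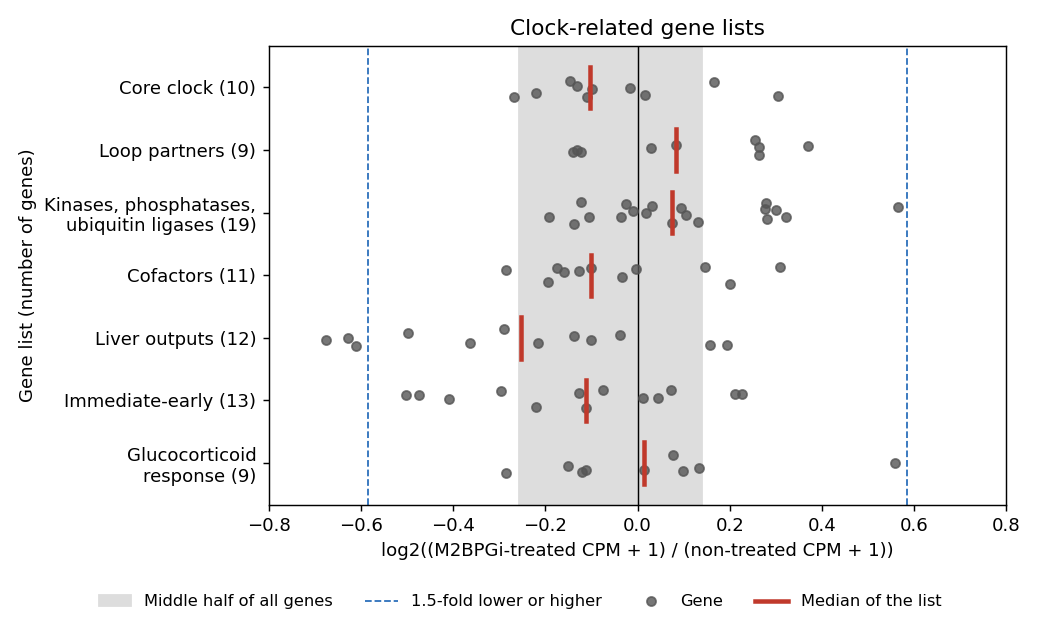
Log2 ratio of each gene, M2BPGi-treated over non-treated cells after adding 1 CPM, in the core clock genes and 6 related lists, for genes with a mean of 1 CPM or more. Red bars are list medians, the grey band spans the quartiles of all genes (-0.26 to 0.14) and dashed lines mark a 1.5-fold difference. The core clock genes have a median of -0.10 and no point past a dashed line, and 3 liver output genes lie past the lower one.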

How the data were processed

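CAGE tags of 1 non-treated and 1 M2BPGi-treated library were analysed. The authors deposited CPM per gene, rounded to 2 decimals. Their methods describe removal of ribosomal tags, mapping with BWA to mouse mm9 and clustering with CAGEr and Paraclu, whereas the identifiers are human and the submitters' processing notes name hg19, BWA and HISAT2. How tags were assigned to genes is not stated in the sources used here, which matters for genes with copies or overlapping neighbours. Tag numbers were read back from the steps of the CPM, and 100% of values were whole within the rounding. They served for intervals only, since 87.6% of low non-treated values lay within 0.1 of a step, under the 95% required for count tests. Log2 ratios used a pseudocount of 1 CPM, which understates low genes, over genes with a mean of 1 CPM or more, and a difference was called at 1.5-fold. Intervals were 95% Clopper-Pearson for tag ratios and for neighbouring levels, exact Poisson for levels and exact conditional for ratios of ratios. Copies were gene models matching the first 500 nt of a transcript in GENCODE v29 (GRCh38) over at least 100 nt at 95% identity or more (BLAST+ 2.17.0), overlapping gene models included. Gene positions are from the same annotation. Named were all 10 clock genes and, in other lists, genes past 1.5-fold and the 3 highest and 3 lowest. Some genes that this rule selects are not reported here. NPAS2, ARNTL2 and RORA were named for their roles after their values were seen. The members and lists were chosen with earlier results of these data known. Alternatives were other pseudocounts, filters, scaling, fold and reference gene. Intervals after rescaling were added after seeing the data. Scripts ran in Python 3.11.15 with scipy 1.17.1 and were tested on simulated data.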

Additional observations from a re-analysis of the deposited data

How the results depend on the processing

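No clock gene passed the 1.5-fold threshold with a pseudocount of 0.1 CPM or after rescaling. None passed with a pseudocount of 5 CPM, with no filter or at 2-fold either, but these settings could not have added a clock gene. With a mean of 10 CPM or more as the filter, only CLOCK, PER1, PER3 and CRY1 were left. None of these 4 passed 1.5-fold, and this filter could not have added a gene. The median log2 ratio of the clock genes ranged from -0.12, over those 4 genes, to -0.06 after rescaling. Rescaling also moved the medians of the related lists up, by about the median removed from all genes (-0.05). They became 0.13 for loop partners (from 0.08), 0.12 for protein modifiers (0.07), -0.05 for cofactors (-0.10), -0.20 for liver outputs (-0.25), -0.06 for immediate-early genes (-0.11) and 0.06 for glucocorticoid response genes (0.01), and each kept its sign. All 44 values of single clock genes stayed within counting error, and ARNTL alone had the other sign, 0.03 after rescaling to a median of 0. The filters leave these values unchanged and a pseudocount cannot change a sign, so only rescaling could have given the other sign. With CLOCK in place of ARNTL as reference, PER1 (0.04) and DBP (0.02) had the other sign, within counting error. After that rescaling, chosen for intervals after seeing the data, 1 clock gene (NR1D2) had an interval above 1 and 0 below, against 0 and 1 (CRY2). Over all 13724 genes these intervals numbered 3807 and 3574, against 3125 and 4317. Numbers of all genes at least 1.5-fold higher and lower, 219 and 555, were 336 and 856 with a pseudocount of 0.1 CPM, 91 and 164 with 5 CPM, and 135 and 223 among genes with a mean of 10 CPM or more. At 2-fold they were 33 and 59. A count test and a trimmed-mean scaling were not run, because the tag numbers did not reach the required precision. No paired analysis was possible because only 1 library stood for either condition, and for the same reason no library could be left out. Depth limits NR1D1, NR1D2 and PER2 most, with 68 to 165 tags each.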
